A study of Mus musculus with 9 samples.

Results

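The 10 genes described here encode Polycomb repressive complex proteins: Ezh1, Ezh2, Eed, Suz12, Jarid2, Mtf2, Rnf2, Kdm2b, Cbx7 and Bmi1. They were picked by symbol from 22322 genes listed in the deposited tables, with earlier results of these data known. All 10 were among the 13158 genes that passed the filter on low counts. RNA was sequenced from mouse R1 embryonic stem cells, an established line, kept 6 days in suspension without LIF so that embryoid bodies formed. The 3 groups of 3 libraries were sh-Pfkp (a hairpin against Pfkp, the platelet isoform of phosphofructokinase), sh-Lin41 (a hairpin against Lin41, the RNA-binding protein of Trim71) and sh-ctrl (a control hairpin). By label, the genotype is Pfkp knockdown, Lin41 knockdown and WT in that order. The title describes Pfkp as a kinase for Lin41 in stem cell differentiation. The labels name no second hairpin and no rescue, so effects of the knockdown and of the hairpin or its cell line cannot be told apart.

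Polycomb repressive complex 2 (PRC2) methylates lysine 27 of histone H3, with Ezh1 or Ezh2 as the enzyme held by Eed and Suz12. Polycomb repressive complex 1 (PRC1) ubiquitinates histone H2A through Ring1 or Rnf2 and one of several PCGF proteins, of which Bmi1 is one. In embryonic stem cells both complexes occupy CpG-rich promoters of developmental genes that are kept silent until differentiation.

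Total counts per library lay between 15495194 and 20607683. Levels below are CPM (counts scaled by TMM-adjusted library totals) or the authors' FPKM. The FPKM are divided by transcript length, and no TMM adjustment was applied to them here. The targeted genes were lower in their own knockdowns, Pfkp at 102.9 CPM in sh-Pfkp against 247.1 CPM in sh-ctrl, and Trim71 at 159.6 CPM in sh-Lin41 against 268.8 CPM in sh-ctrl. The 8 pluripotency markers checked summed to 3622 to 3675 CPM in sh-Pfkp, 4339 to 4367 CPM in sh-Lin41 and 3470 to 3525 CPM in sh-ctrl, a sum over genes that moved both ways. In sh-Pfkp 4 of the 8 were called higher (Nanog, Sox2, Zfp42, Dppa4) and 4 lower (Pou5f1, Esrrb, Klf4, Utf1), and in sh-Lin41 6 were higher and 1, Utf1, lower. The 10 fibroblast or stromal markers summed to 29.9 to 34.5 CPM in sh-Pfkp, 10.1 to 12.5 CPM in sh-Lin41 and 13.8 to 15.1 CPM in sh-ctrl, with Lum, Dcn and Postn at 0 counts in the sh-Lin41 and sh-ctrl libraries. Of the 10, 8 passed the filter, at least 1 of them only through sh-Pfkp, so calls over the 8 are not counted here. Against the direction of the sum, Pdgfrb (2.57 CPM in sh-Pfkp, 8.28 CPM in sh-ctrl) and Thy1 (1.85 CPM in sh-Pfkp, 3.7 CPM in sh-ctrl) were lower in sh-Pfkp. The 6 neural markers summed to 144.9 to 152.5 CPM in sh-Pfkp, 116 to 120.5 CPM in sh-Lin41 and 119.9 to 125 CPM in sh-ctrl, with 4 higher and 1 lower in sh-Pfkp and 1 higher and 2 lower in sh-Lin41. The 6 extraembryonic endoderm markers summed to 165 to 171 CPM in sh-Pfkp, 128.5 to 139.7 CPM in sh-Lin41 and 211 to 223 CPM in sh-ctrl. Nearly all of that sum was Lama1 (166 CPM in sh-Pfkp, 131 CPM in sh-Lin41 and 215 CPM in sh-ctrl), and Afp was at 0 counts in every library. Sums of the mesoderm and definitive endoderm markers were at most 5.64 CPM in any library. The 9 mitochondrially encoded transcripts summed to 66079 to 68164 CPM in sh-Pfkp, 69083 to 71675 CPM in sh-Lin41 and 49598 to 51461 CPM in sh-ctrl. The part of these markers in the results below was not tested.

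Most of the Polycomb genes changed in each knockdown, and of the 10 only Bmi1 changed by more than 1.5-fold. A gene was called at an edgeR quasi-likelihood p under 0.05 after Benjamini-Hochberg adjustment over all tested genes. In sh-Pfkp against sh-ctrl, 9 of 10 were called, where 56.6% of all tested genes were. Of these 7 were higher and 2 lower, against 28.3% of tested genes in each direction. In sh-Lin41 against sh-ctrl, 8 of 10 were called, where 54.3% of tested genes were, with 6 higher (26.9% of tested genes) and 2 lower (27.3%). The median absolute log2 fold change of the 10 was 0.18 in sh-Pfkp, against 0.21 over all tested genes, and 0.21 in sh-Lin41, against 0.20. CPM values of the knockdown and control libraries did not overlap for 10 of 10 genes in sh-Pfkp (61% of tested genes) and for 8 of 10 in sh-Lin41 (59%). No label states that replicates were cultured separately, and the p-values then cover only library-to-library spread, possibly technical. In bulk RNA, a different share of cells with a transcript and a different amount per cell cannot be told apart.

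Mtf2, Eed and Ezh2 were the most abundant of the 10 per length in control, and Bmi1 the least. In sh-ctrl the FPKM means ran from Mtf2 (133.1) through Eed (123), Ezh2 (110.3), Jarid2 (93.3), Cbx7 (74.1), Suz12 (72.9), Rnf2 (59.8), Kdm2b (26.2) and Ezh1 (7.95) to Bmi1 (4.76), and among neighbours only the ranges of Cbx7 and Suz12 overlapped. In sh-Pfkp the order was led by Eed (146) and Mtf2 (140.1), whose library ranges overlapped, followed by Jarid2 (110.1), Ezh2 (95.3) and Suz12 (78.1). In sh-Lin41 it was led by Mtf2 (167) and Jarid2 (130.1), followed by Eed (122), Suz12 (99.3) and Ezh2 (97.6), the last 2 with overlapping ranges. Rnf2 and Cbx7 overlapped in both knockdowns. Bmi1 lay above Ezh1 in both knockdowns, at 8.39 against 6.86 FPKM in sh-Pfkp and 8.86 against 7.03 FPKM in sh-Lin41, and below it in sh-ctrl.

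**Figure D1:**
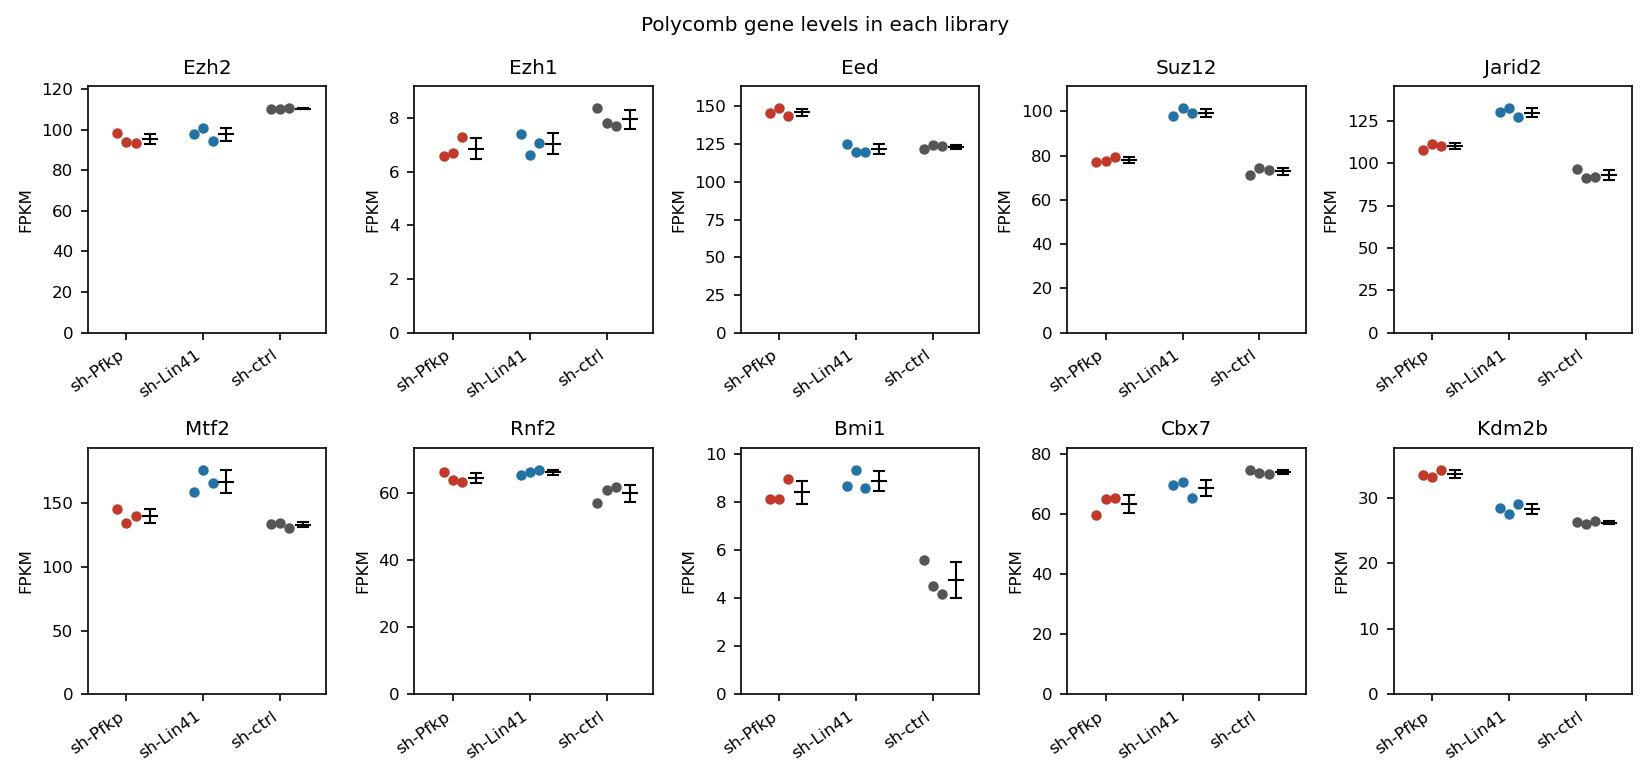
FPKM of each Polycomb gene (vertical axis, starting at 0) in the 3 libraries of sh-Pfkp, sh-Lin41 and sh-ctrl, as dots, with the mean and SD beside them. Bmi1 lay between 8.12 and 9.33 FPKM in the 6 knockdown libraries, all above the control libraries, while Eed was raised in sh-Pfkp and Suz12 and Jarid2 were highest in sh-Lin41.

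The printed promoters show 4 genes on which the results turn: Bmi1, the gene with the largest rise, and Suz12, Jarid2 and Mtf2, which rose more in sh-Lin41 than in sh-Pfkp. Each is the 250 bases before the first listed start, from RefSeq on GRCm38.p6. Genes were matched by symbol, since the tables name no build, and all 10 matched (15 windows of 300 bases, with 50 bases after the start). Capitals mark the matches to 3 searches on both strands, for E2F, the E-box and the hypoxia response core. An E2F match was any of TTCCCGC or else the variant TTCGCGC or else the variant TTGCCGC or else the variant TTGGCGC. The E-box was CACGTG and contains the hypoxia core, which was ACGTG (the capitals of Jarid2 are this core read on the minus strand). The Mtf2 sequence has no match. Bmi1 lies at chr2:18676768-18677017, Suz12 at chr11:79992856-79993105, Jarid2 at chr13:44730524-44730773 and Mtf2 at chr5:108065424-108065673, all on the plus strand.
Bmi1: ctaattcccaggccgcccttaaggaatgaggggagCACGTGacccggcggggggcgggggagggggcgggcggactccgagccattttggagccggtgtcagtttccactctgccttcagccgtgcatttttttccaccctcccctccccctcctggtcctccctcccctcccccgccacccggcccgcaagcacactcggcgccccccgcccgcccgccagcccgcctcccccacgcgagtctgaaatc
Suz12: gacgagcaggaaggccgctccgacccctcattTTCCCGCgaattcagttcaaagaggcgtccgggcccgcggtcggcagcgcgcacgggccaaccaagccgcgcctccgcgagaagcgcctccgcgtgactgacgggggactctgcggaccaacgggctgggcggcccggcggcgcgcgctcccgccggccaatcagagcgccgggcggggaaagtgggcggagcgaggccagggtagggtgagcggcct
Jarid2: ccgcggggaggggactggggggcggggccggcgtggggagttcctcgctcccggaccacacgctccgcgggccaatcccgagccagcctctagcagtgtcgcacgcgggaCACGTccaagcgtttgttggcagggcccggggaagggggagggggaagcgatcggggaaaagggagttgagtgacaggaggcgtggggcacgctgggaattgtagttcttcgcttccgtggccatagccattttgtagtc
Mtf2: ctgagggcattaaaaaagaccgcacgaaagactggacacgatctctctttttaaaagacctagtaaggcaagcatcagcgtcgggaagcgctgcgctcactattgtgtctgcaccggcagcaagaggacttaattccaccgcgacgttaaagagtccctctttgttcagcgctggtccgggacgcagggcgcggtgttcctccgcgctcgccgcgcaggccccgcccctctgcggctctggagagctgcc
Over the 15 windows of the 10 genes, an E2F string occurred in those of Ezh2 and Suz12 (9.57% of all 32851 RefSeq windows hold one), the E-box in that of Bmi1 (7.15%) and the hypoxia core in those of Bmi1, Ezh2 and Jarid2 (19.6%). Of the 15 windows, 14 held more CpG than the median of all windows, which was 7. The windows are not separate genes throughout, and some of those of Kdm2b overlap. A match is a string of letters and does not show binding.

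Both PRC2 enzymes fell in each knockdown. Ezh2 (ENSMUSG00000029687), the main enzyme of dividing cells, had 240.1, 228 and 227 CPM in sh-Pfkp, 221, 235 and 222 CPM in sh-Lin41 and 269, 262 and 265 CPM in sh-ctrl. Every knockdown library lay below every control library. Ezh2 fell by 0.20 on the log2 scale in sh-Pfkp (SE 0.0262, n = 3 per group, edgeR adjusted p = 1.51e-07) and by 0.23 in sh-Lin41 (SE 0.0261, edgeR adjusted p = 5.6e-09). Ezh1 (ENSMUSG00000006920), the less abundant enzyme, had 27.6, 28.1 and 30.4 CPM in sh-Pfkp, 29.8, 26.9 and 28.7 CPM in sh-Lin41 and 33.8, 32 and 31.1 CPM in sh-ctrl. It fell by 0.17 (SE 0.0587, edgeR adjusted p = 0.0138) and by 0.18 (SE 0.0583, edgeR adjusted p = 0.0087) on the log2 scale. For both enzymes the knockdown libraries lay below the control libraries without overlap. The calls for Ezh1 were lost without sh-Pfkp replicate 1 or 2 or sh-ctrl replicate 1 (edgeR adjusted p = 0.0744, 0.056 and 0.0906, sh-Pfkp) and without sh-Lin41 replicate 2 or sh-ctrl replicate 1 (0.0636 and 0.0555, sh-Lin41). DESeq2 gave Ezh1 an adjusted p of 0.0532 in sh-Pfkp, and limma on log2(FPKM + 1) gave 0.0641 in sh-Lin41.

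The core subunits that hold the enzyme moved differently in the knockdowns. Eed (ENSMUSG00000030619), the subunit that reads methylated histone H3, had 218, 225 and 218 CPM in sh-Pfkp, 177, 175 and 172 CPM in sh-Lin41 and 173, 177 and 177 CPM in sh-ctrl. The sh-Pfkp libraries stood above all others, and the sh-Lin41 and sh-ctrl libraries overlapped. Eed rose by 0.33 on the log2 scale in sh-Pfkp (SE 0.0252, n = 3 per group, edgeR adjusted p = 1e-12), whereas its log2 fold change in sh-Lin41 was -0.01 (95% interval -0.0588 to 0.046, edgeR adjusted p = 0.853). Suz12 (ENSMUSG00000017548), the scaffold subunit, had 343, 347 and 352 CPM in sh-Pfkp, 420.2, 436 and 425 CPM in sh-Lin41 and 306, 321 and 316 CPM in sh-ctrl. The 3 groups did not overlap. Suz12 rose by 0.14 in sh-Pfkp (SE 0.0223, edgeR adjusted p = 2.08e-06) and by 0.44 in sh-Lin41 (SE 0.0219, edgeR adjusted p = 1.6e-17), both on the log2 scale.

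The accessory subunits Jarid2 and Mtf2 rose in both knockdowns. Jarid2 (ENSMUSG00000038518), a substoichiometric subunit of the JARID family that lacks demethylase activity, had 546, 555 and 557 CPM in sh-Pfkp, 650.4, 674 and 649 CPM in sh-Lin41 and 483, 477 and 476 CPM in sh-ctrl. Its log2 fold change was 0.21 in sh-Pfkp (SE 0.0193, n = 3 per group, edgeR adjusted p = 8.98e-11) and 0.46 in sh-Lin41 (SE 0.019, edgeR adjusted p = 1.92e-19). Mtf2 (ENSMUSG00000029267), a Polycomb-like protein that brings PRC2 to CpG-rich DNA, had 507, 501 and 503 CPM in sh-Pfkp, 565, 597 and 597 CPM in sh-Lin41 and 451, 453 and 452 CPM in sh-ctrl. It rose by 0.15 in sh-Pfkp (SE 0.0206, edgeR adjusted p = 1.33e-07) and by 0.37 in sh-Lin41 (SE 0.0203, edgeR adjusted p = 1.76e-16) on the log2 scale. For both genes the 3 groups stood apart, with sh-Lin41 highest, sh-Pfkp next and sh-ctrl lowest. Nanog, Sox2 and Zfp42 had the same order of group means, and the other 5 pluripotency markers checked did not. In FPKM the rise of Mtf2 in sh-Pfkp was smaller and not called (log2 0.07, limma adjusted p = 0.143).

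Among PRC1 genes, Bmi1 showed the largest change of the 10, by the same amount in each knockdown. Bmi1 (ENSMUSG00000026739), which is PCGF4 and a repressor of the Cdkn2a locus, had 25.2, 25.6 and 27.6 CPM in sh-Pfkp, 25.8, 27.4 and 25.1 CPM in sh-Lin41 and 15.4, 13.9 and 12.5 CPM in sh-ctrl. The knockdown libraries overlapped each other and stood above every control library. The rise was 1.87-fold in both comparisons, a log2 fold change of 0.90 in sh-Pfkp (SE 0.0752, n = 3 per group, edgeR adjusted p = 7.46e-12) and of 0.90 in sh-Lin41 (SE 0.0746, edgeR adjusted p = 5.77e-12). Of all tested genes, 8.45% in sh-Pfkp and 5.71% in sh-Lin41 had a larger absolute log2 fold change. Both comparisons share the control libraries, in which Bmi1 rests on 218 to 270 counts. Cdkn2a averaged 4.09 CPM in sh-Pfkp, 6.86 CPM in sh-Lin41 and 5.23 CPM in sh-ctrl. Its log2 fold change was -0.35 in sh-Pfkp (edgeR adjusted p = 0.0459) and 0.39 in sh-Lin41 (edgeR adjusted p = 0.0174). Neither was called in DESeq2 (adjusted p = 0.103 and 0.0543). A link to Bmi1 was not tested.

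Rnf2 and Kdm2b also rose, and Cbx7 was the only one of the 10 called in neither knockdown. Rnf2 (ENSMUSG00000026484), also known as RING1B, the ubiquitin ligase of PRC1, had 211, 206 and 203 CPM in sh-Pfkp, 203, 207 and 208.5 CPM in sh-Lin41 and 178, 189.5 and 192 CPM in sh-ctrl. Its log2 fold change was 0.15 in sh-Pfkp (SE 0.0276, n = 3 per group, edgeR adjusted p = 2.88e-05) and 0.15 in sh-Lin41 (SE 0.0274, edgeR adjusted p = 3.55e-05). Kdm2b (ENSMUSG00000029475), whose CXXC domain brings a variant PRC1 to unmethylated CpG islands, had 144, 145 and 149.9 CPM in sh-Pfkp, 119, 115 and 119.8 CPM in sh-Lin41 and 111, 108 and 110.1 CPM in sh-ctrl. Kdm2b rose by 0.42 in sh-Pfkp (SE 0.0302, edgeR adjusted p = 2.54e-13) and by 0.11 in sh-Lin41 (SE 0.0308, edgeR adjusted p = 0.00377) on the log2 scale.

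Cbx7 (ENSMUSG00000053411), the chromodomain protein that reads methylated lysine 27 in canonical PRC1, had 69.4, 71.1 and 68.7 CPM in sh-Pfkp, 78.8, 75.5 and 70.4 CPM in sh-Lin41 and 77.4, 73.3 and 72.7 CPM in sh-ctrl. Its log2 fold change was -0.09 in sh-Pfkp (SE 0.0413, n = 3 per group, edgeR adjusted p = 0.0524) and 0.01 in sh-Lin41 (95% interval -0.072 to 0.0931, edgeR adjusted p = 0.846). With the replicate number as a block, which pairs the sh-Pfkp and sh-ctrl libraries, the sh-Pfkp difference was called over 9 libraries (log2 -0.10, edgeR adjusted p = 0.0397) and not over the 6 libraries compared (edgeR adjusted p = 0.0541). In FPKM Cbx7 was lower in both knockdowns, at 63.4 ± 3.11 in sh-Pfkp, 68.7 ± 2.75 in sh-Lin41 and 74.1 ± 0.643 in sh-ctrl (SD, n = 3 each). On log2(FPKM + 1) its changes were -0.22 in sh-Pfkp (limma adjusted p = 0.000948) and -0.11 in sh-Lin41 (limma adjusted p = 0.0429). The number of counts behind each unit of FPKM, relative to other genes of the library, was higher by 0.08 in sh-Pfkp and 0.12 in sh-Lin41 on the log2 scale for Cbx7, and 7.79% and 4.31% of 7379 genes differed by more. The authors' deposited table gives Cbx7 log2 ratios of -0.22 (FDR 0.132) in sh-Pfkp and -0.11 (FDR 0.917) in sh-Lin41.

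**Figure D2:**
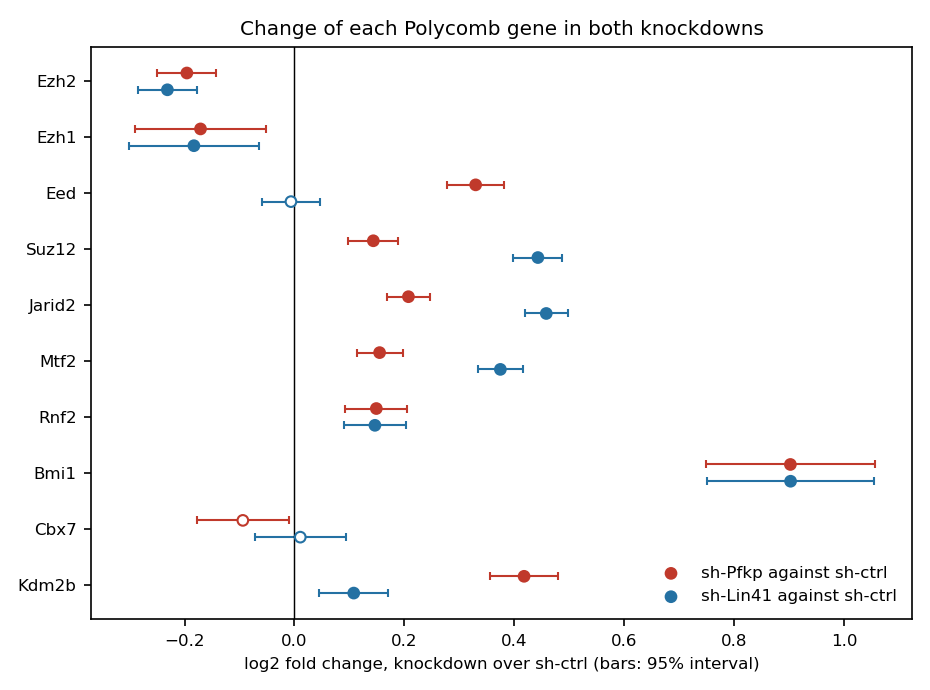
Log2 fold change over sh-ctrl of each Polycomb gene (horizontal axis) in sh-Pfkp (red, upper) and sh-Lin41 (blue, lower), with the 95% interval; filled points were called and open points were not. Bmi1 sits at 0.90 in both, Ezh2 and Ezh1 lie below 0 in both, and Eed, Suz12, Jarid2, Mtf2 and Kdm2b differ between the knockdowns.

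In the direct comparison of the knockdowns, calls were about as frequent among the 10 as over all tested genes. Of the 10, 6 were called in sh-Pfkp against sh-Lin41, where 55.1% of tested genes were, with 2 higher (27.4% of tested genes) and 4 lower (27.8%). CPM values of the 2 knockdowns did not overlap for 5 of 10, against 59.8% of tested genes. Eed (log2 0.34, SE 0.0248, n = 3 per group, edgeR adjusted p = 3.81e-13) and Kdm2b (log2 0.31, SE 0.0293, edgeR adjusted p = 1.16e-10) were higher in sh-Pfkp. Suz12 (log2 -0.30, SE 0.0215, edgeR adjusted p = 2.05e-13), Jarid2 (log2 -0.25, SE 0.0187, edgeR adjusted p = 5.15e-13) and Mtf2 (log2 -0.22, SE 0.0201, edgeR adjusted p = 5.28e-11) were lower in sh-Pfkp. Cbx7 was also called lower (log2 -0.10, SE 0.0404, edgeR adjusted p = 0.0287), but its libraries overlapped, the DESeq2 adjusted p was 0.104, and the call was lost without sh-Pfkp replicate 1 or 3 or sh-Lin41 replicate 1 or 2 (edgeR adjusted p = 0.0774, 0.104, 0.235 and 0.0895).

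Bmi1, Rnf2, Ezh1 and Ezh2 were not called between the knockdowns. The interval of the difference was narrow for Rnf2 (log2 -0.0522 to 0.0573) and Ezh2 (-0.0182 to 0.089), and wider for Bmi1 (-0.135 to 0.134) and Ezh1 (-0.108 to 0.132). Ezh2 was called without sh-Lin41 replicate 2 (log2 0.07, edgeR adjusted p = 0.0414).

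Ratios between alternative subunits were compared within each library in FPKM, with 18 two-sided exact permutation tests. With 3 libraries against 3 the smallest possible p is 0.1, and after adjustment over the 18 tests no p was under 0.257. The Ezh2 to Ezh1 ratio averaged 13.9 ± 1.04 in sh-Pfkp, 13.9 ± 1.13 in sh-Lin41 and 13.9 ± 0.613 in sh-ctrl (SD, n = 3 each, exact p = 1 and 0.9 against control). The Bmi1 to Pcgf2 ratio averaged 0.204 ± 0.012 in sh-Pfkp, 0.204 ± 0.00297 in sh-Lin41 and 0.123 ± 0.0211 in sh-ctrl, and each knockdown stood above control without overlap (exact p = 0.1 in both). Jarid2 to Mtf2 averaged 0.787 ± 0.0439 in sh-Pfkp, 0.779 ± 0.0351 in sh-Lin41 and 0.701 ± 0.0204 in sh-ctrl, again without overlap (exact p = 0.1 in both). The log2 ratio to control was 0.17 in sh-Pfkp and 0.15 in sh-Lin41 in FPKM, and 0.05 in sh-Pfkp and 0.08 in sh-Lin41 in CPM.

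The other pairs showed which relative dominates. Rnf2 exceeded Ring1, its low-count paralog, by 58.9 ± 4.3 times in sh-Pfkp, 45.8 ± 5.86 times in sh-Lin41 and 46.9 ± 8.29 times in sh-ctrl (SD, n = 3 each), with exact p = 0.2 for sh-Pfkp and 0.9 for sh-Lin41 against control. Mtf2 made up 97.3% ± 0.236 of the summed FPKM of the 3 Polycomb-like genes Mtf2, Phf1 and Phf19 in sh-Pfkp, 97.3% ± 0.236 in sh-Lin41 and 96.6% ± 0.483 in sh-ctrl.

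**Figure D3:**
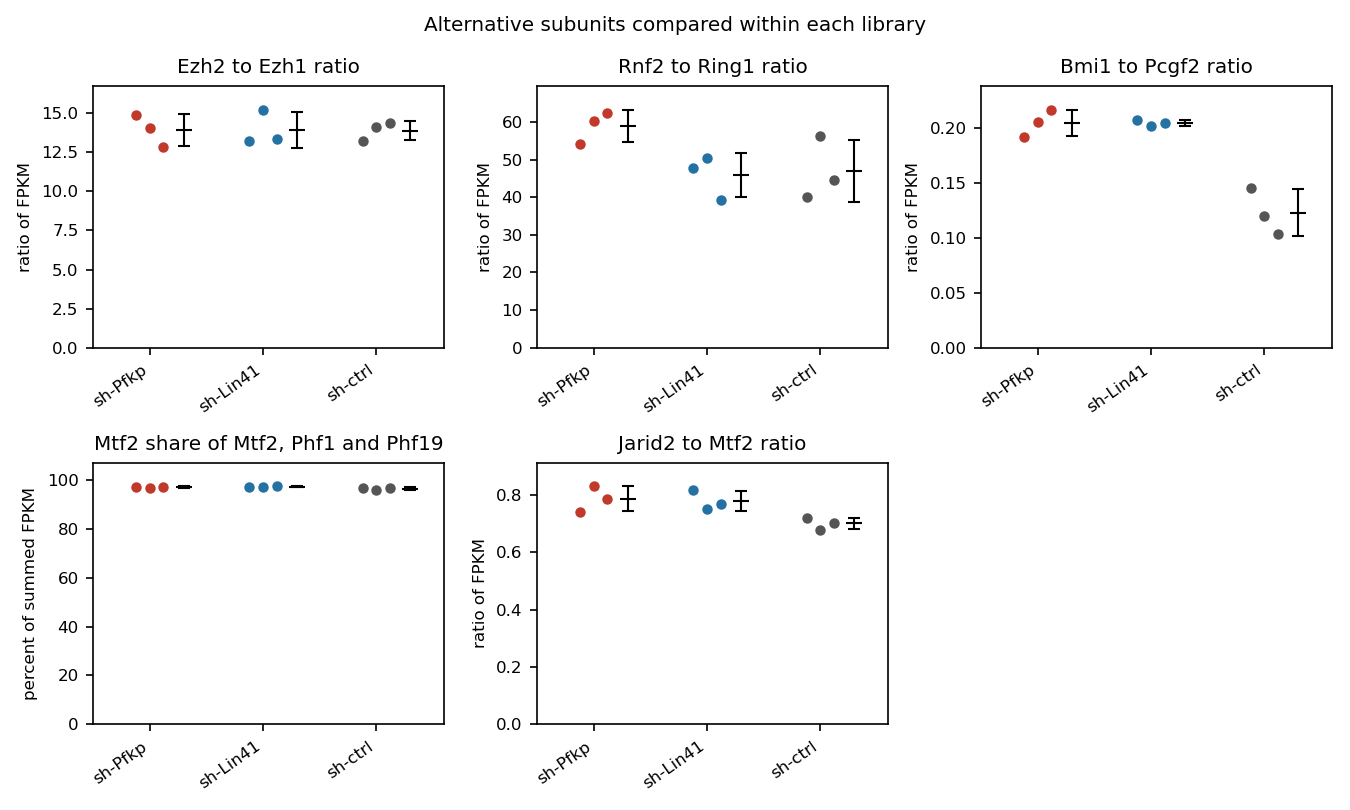
Ratio or share in FPKM of alternative subunits (vertical axes, starting at 0) in each library of sh-Pfkp, sh-Lin41 and sh-ctrl, with mean and SD. The Ezh2 to Ezh1 ratio averaged 13.9 in all groups, whereas the Bmi1 to Pcgf2 ratio was 0.204 in both knockdowns and 0.123 in sh-ctrl.

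Bmi1 and Pcgf5 changed in opposite directions within the PCGF family, whose members define the kinds of PRC1. Pcgf5, of a variant PRC1, averaged 13.2 ± 1.18 CPM in sh-Pfkp, 11.2 ± 0.527 CPM in sh-Lin41 and 20.9 ± 2.15 CPM in sh-ctrl (SD, n = 3 each). It fell by 0.66 in sh-Pfkp (SE 0.0871, edgeR adjusted p = 1e-07) and by 0.90 in sh-Lin41 (SE 0.0885, edgeR adjusted p = 3.24e-10) on the log2 scale. Pcgf2 (Mel18), the closest relative of Bmi1, had log2 fold changes of 0.14 in sh-Pfkp and 0.22 in sh-Lin41, of which the first was lost without sh-ctrl replicate 1 (edgeR adjusted p = 0.0596), with library totals only (edgeR adjusted p = 0.0744) and in FPKM (limma adjusted p = 0.162). Pcgf6 rose in sh-Pfkp (0.18) and fell in sh-Lin41 (-0.15), Pcgf3 fell in both (-0.13 in sh-Pfkp, -0.15 in sh-Lin41), and Pcgf1 was called in neither. Per length, Pcgf6 (46.8 FPKM in sh-Pfkp, 38.3 in sh-Lin41 and 42.5 in sh-ctrl) and Pcgf2 (41.1 FPKM in sh-Pfkp, 43.4 in sh-Lin41 and 38.8 in sh-ctrl) lay above Bmi1 in every group.

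**Figure D4:**
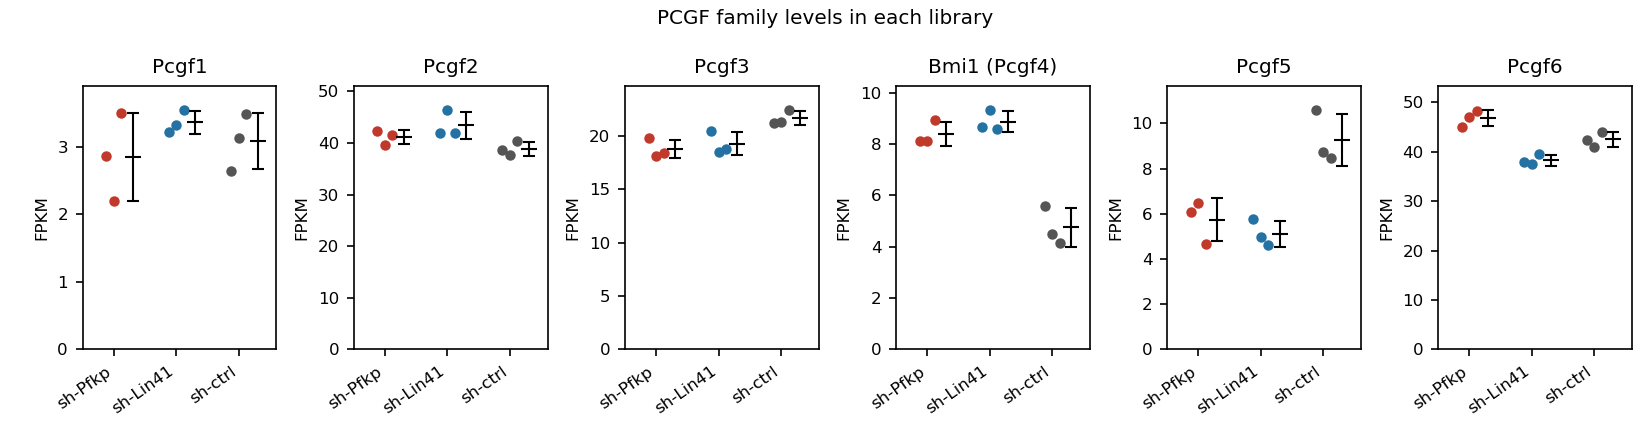
FPKM of the PCGF genes (vertical axes, starting at 0) in each library of sh-Pfkp, sh-Lin41 and sh-ctrl, with mean and SD. Bmi1 was higher and Pcgf5 lower in every knockdown library than in every control library.

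The genes whose pattern over the 9 libraries was most like that of Bmi1 were Zbtb2, a zinc finger protein gene, and Ptprv, a receptor-type tyrosine phosphatase gene. Their log2 CPM, relative to the control mean, differed from that of Bmi1 by a root mean square of 0.0886 and 0.0932, the smallest among 9720 genes whose mean reached 5 CPM. Zbtb2 averaged 23.6 CPM in sh-Pfkp, 22.9 CPM in sh-Lin41 and 13 CPM in sh-ctrl. Commd3, the same-strand neighbour just upstream of Bmi1, was chosen after its values were seen. It averaged 10.7 ± 1.58 CPM in sh-Pfkp, 13.6 ± 1.6 CPM in sh-Lin41 and 8.24 ± 1.29 CPM in sh-ctrl (SD, n = 3 each), with log2 fold changes of 0.38 in sh-Pfkp and 0.73 in sh-Lin41. The call in sh-Pfkp was lost without sh-Pfkp replicate 3 or sh-ctrl replicate 3 (edgeR adjusted p = 0.0583 and 0.0989) and in FPKM (limma adjusted p = 0.0776).

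Other PRC2 genes moved in both directions. Of 9 tested, 3 rose and 4 fell in sh-Pfkp, and 5 rose and 2 fell in sh-Lin41, with median log2 fold changes of -0.08 in sh-Pfkp and 0.13 in sh-Lin41, against -0.005 and 0.00428 over all tested genes. In FPKM 2 fell in sh-Pfkp. For these and the lists that follow, 28.3% of all tested genes rose and 28.3% fell in sh-Pfkp, and 26.9% rose and 27.3% fell in sh-Lin41. Aebp2, the cofactor that accompanies Jarid2, averaged 194 ± 0.326 CPM in sh-Pfkp, 193 ± 1.3 CPM in sh-Lin41 and 134.5 ± 3.43 CPM in sh-ctrl (SD, n = 3 each). It rose by 0.53 in sh-Pfkp (SE 0.0265) and by 0.52 in sh-Lin41 (SE 0.0263) on the log2 scale, and the interval of the direct difference was -0.0476 to 0.0538. Epop, which links PRC2 to elongin, rose by 0.15 in sh-Pfkp (SE 0.0225) and by 0.73 in sh-Lin41 (SE 0.0217), and was lower in sh-Pfkp than in sh-Lin41 by a log2 of -0.58 (edgeR adjusted p = 9.79e-21). The histone chaperones Rbbp4 (-0.08 in sh-Pfkp, -0.18 in sh-Lin41) and Rbbp7 (-0.09 in sh-Pfkp, -0.32 in sh-Lin41) fell in both.

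Of 11 other canonical PRC1 genes, 2 rose and 2 fell in sh-Pfkp, and 4 rose and 4 fell in sh-Lin41, with median log2 fold changes of -0.07 in sh-Pfkp and 0.12 in sh-Lin41. In sh-Lin41 2 fell in FPKM or without sh-ctrl replicate 2. Phc1, a polyhomeotic scaffold protein, rose by 0.12 in sh-Pfkp (SE 0.0205) and by 0.42 in sh-Lin41 (SE 0.0201). Cbx6 rose by 0.35 in sh-Lin41 (SE 0.0412), and its log2 fold change in sh-Pfkp was -0.02 and not called. Scmh1 fell by 0.28 in sh-Lin41 (SE 0.0626). Phc3 was called lower in sh-Pfkp (log2 -0.14), a call lost without sh-Pfkp replicate 1 or 2 or sh-ctrl replicate 2 (edgeR adjusted p = 0.0611, 0.259 and 0.127), with the replicate block over the 6 libraries compared (log2 -0.13, edgeR adjusted p = 0.0536), in DESeq2 (adjusted p = 0.0726) and in FPKM (limma adjusted p = 0.206).

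Of 16 variant PRC1 genes tested, 7 rose and 4 fell in sh-Pfkp (28.3% of all tested genes each way), and 3 rose (26.9%) and 9 fell (27.3%) in sh-Lin41, with median log2 fold changes of 0.04 in sh-Pfkp and -0.09 in sh-Lin41. Rybp, which replaces the CBX protein in variant PRC1, averaged 506 ± 7.16 CPM in sh-Pfkp, 341 ± 1.65 CPM in sh-Lin41 and 422 ± 2.98 CPM in sh-ctrl (SD, n = 3 each). It rose in sh-Pfkp (log2 0.26, SE 0.0192) and fell in sh-Lin41 (log2 -0.31, SE 0.0197), and the direct difference was 0.57 (SE 0.0193, edgeR adjusted p = 1.12e-21). Mga, the scaffold of the PCGF6 complex, rose by 0.44 in sh-Pfkp (SE 0.0222) and by 0.45 in sh-Lin41 (SE 0.0221). Bcor, the corepressor of the PCGF1 complex that Kdm2b joins, rose in sh-Pfkp (log2 0.38, SE 0.0386), fell in sh-Lin41 (log2 -0.13, SE 0.0403) and was higher there than in sh-Lin41 by 0.51 (SE 0.0383). Dcaf7 rose in sh-Lin41 (log2 0.20, SE 0.0297). Bcorl1 fell in sh-Pfkp on counts (log2 -0.42), and in FPKM its change was of like size and not called (log2 -0.45, limma adjusted p = 0.073).

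Most of the 13 Trithorax and MLL genes encode or assist histone H3 lysine 4 methyltransferases. In sh-Pfkp 10 of the 13 rose and none fell (28.3% of all tested genes each way). In sh-Lin41 7 rose (26.9%) and 3 fell (27.3%). Over the 13, median log2 fold changes were 0.17 in sh-Pfkp and 0.09 in sh-Lin41. In FPKM the count in sh-Pfkp was 6 higher and none lower. Setd1b, the methyltransferase with the largest rise here, reached 74.4 CPM in sh-Pfkp and 81.1 CPM in sh-Lin41 against 37.8 CPM in sh-ctrl (log2 0.98, SE 0.048, and 1.11, SE 0.0471). Ash2l, a core subunit, rose by 0.48 in sh-Pfkp (SE 0.0229), Ash1l by 0.43 in sh-Lin41 (SE 0.0385), and Kmt2a by 0.27 in sh-Pfkp and 0.30 in sh-Lin41. Of the 3 genes of the lysine 27 demethylase family, Kdm6a rose in both (0.50 in sh-Pfkp, 0.37 in sh-Lin41), Kdm6b fell in both (-0.42 in sh-Pfkp, -0.16 in sh-Lin41), and Uty, the Y-linked relative of Kdm6a, rose in sh-Pfkp (0.35). Of 10 genes of the PR-DUB complex, which removes the PRC1 mark, 5 rose and 3 fell in sh-Pfkp and 4 rose and 4 fell in sh-Lin41, with medians of 0.10 in sh-Pfkp and 0.01 in sh-Lin41. In FPKM 3 rose in sh-Pfkp. Asxl1 (0.38) and Hcfc1 (0.23) rose in sh-Pfkp, Foxk1 (0.77) and Asxl3 (1.46) in sh-Lin41, and Foxk2 fell in both (-0.22 in sh-Pfkp, -0.47 in sh-Lin41).

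Of 36 developmental regulators that Polycomb is known to silence in stem cells, 16 passed the filter on low counts. Some passed only through a group in which they were high, so counts and medians over the 16 are not given. Pax6, an eye and forebrain factor, averaged 15.6 CPM in sh-Pfkp, 7.28 CPM in sh-Lin41 and 7.33 CPM in sh-ctrl, and rose in sh-Pfkp (log2 1.08, SE 0.0983). Eomes, a T-box factor of early mesoderm and endoderm, averaged 10.3 CPM in sh-Pfkp, 9.17 CPM in sh-Lin41 and 14.6 CPM in sh-ctrl. It fell in sh-Pfkp (log2 -0.49, SE 0.0901) and in sh-Lin41 (log2 -0.67, SE 0.091). Pax2 averaged 0.48 CPM in sh-Pfkp, 3.03 CPM in sh-Lin41 and 2.26 CPM in sh-ctrl. Its fall in sh-Pfkp (log2 -2.21, SE 0.289) rests on 6 to 11 counts per sh-Pfkp library. Msx2 averaged 1.44 CPM in sh-Pfkp, 3.23 CPM in sh-Lin41 and 1.97 CPM in sh-ctrl, and rose in sh-Lin41 (log2 0.70, SE 0.197).

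Of 39 Hox genes, 12 passed the filter, some of them only through sh-Lin41, and counts over the 12 are likewise not given. Hoxa10 averaged 2.26 CPM in sh-Pfkp and 6.68 CPM in sh-Lin41 against 0.934 CPM in sh-ctrl, and rose in sh-Pfkp (log2 1.27, SE 0.228) and in sh-Lin41 (log2 2.83, SE 0.189).

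**Figure D5:**
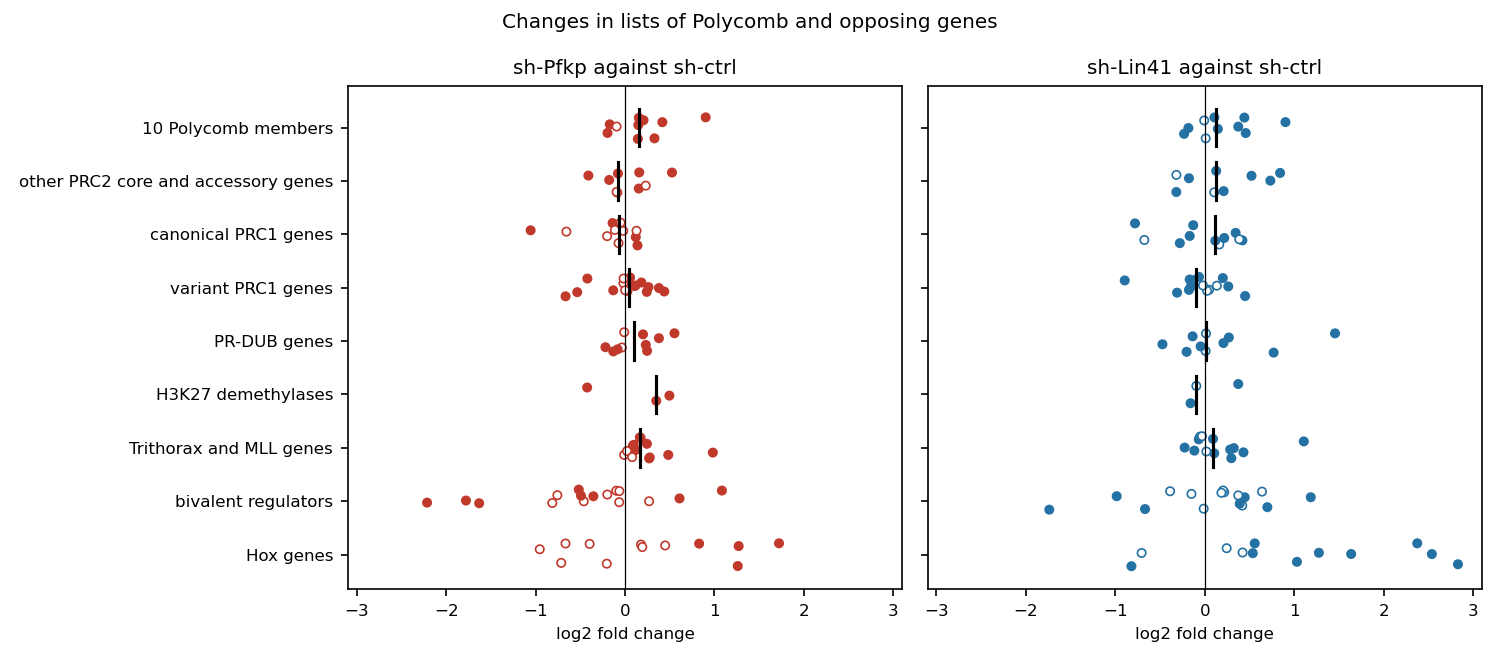
Log2 fold change over sh-ctrl (horizontal axis) of every tested gene of each list, in sh-Pfkp (left) and sh-Lin41 (right). Filled points were called, open points were not, and black bars mark medians of the lists that were tested in full. Some developmental regulators and Hox genes passed the filter only through a group in which they were high. Their points therefore give no result about those lists. Medians of the Trithorax and MLL genes are 0.17 in sh-Pfkp and 0.09 in sh-Lin41, and Hoxa10 reaches 2.83 in sh-Lin41.

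Some counts could hold reads of overlapping genes, because the sources used here do not give the strand setting of the counting. In GENCODE M21 the exons of Ezh2, Eed, Suz12, Mtf2, Rnf2, Kdm2b and Cbx7 overlap a gene on the opposite strand, and reads of the pair cannot be told apart. Kdm2b also overlaps Gm44574 on the same strand. Ezh1, Jarid2 and Bmi1 overlap no annotated exon of another gene.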

How the data were processed

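RNA-seq of 9 libraries was deposited as 2 full tables, each knockdown with the same control columns. The authors deposited read counts per gene as whole numbers and FPKM per library, per the file headers. Their tables also hold a log2 ratio of group means with a p-value and FDR per gene, per the file headers. RSEM, HISAT2, StringTie 1.3.1, Bowtie2 2.2.8 and fastp 0.18.0 appear in the submitters' processing notes, so the counts may be rounded estimates. The build, annotation, strand setting and the authors' test are not stated.

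All 9 libraries entered 1 fit with edgeR 4.0.16 in R 4.3.3 (filterByExpr, TMM, quasi-likelihood, 6 residual degrees of freedom, Benjamini-Hochberg threshold 0.05, no minimum fold). CPM are counts scaled by TMM-adjusted library size. The steps were run on simulated counts with 1 spread for all genes. Of 50 genes changed at each size, 20% were recovered at 1.15-fold, 58% at 1.25-fold and 98% at 1.5-fold. Of 12708 unchanged genes, 6 were called. The simulated spread (coefficient of variation 0.0662) was larger than the common spread fitted to the data (0.0213). These shares therefore do not carry over to the libraries here. SE is the log2 fold change over the square root of F. FPKM ratios were tested by exact permutation (SciPy 1.17.1). Ratios of counts to FPKM used genes with at least 5 FPKM in every library. Alternatives were DESeq2 1.42.0, limma 3.58.1 on log2(FPKM + 1) and log2(FPKM + 0.1), RLE scaling, library totals, no filter, 6 libraries, a replicate block and leaving out each library. The block over 6 libraries was added after seeing the data.

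The genes and lists were chosen with earlier results of these data known. All 10 Polycomb genes were named, and from each list up to 4 called genes with the smallest adjusted p per comparison. Cdkn2a was named in addition, with its values known. The numbers in the labels do not say what they mark. The main fit and the ratio tests left libraries unpaired, and the replicate block was run only as an alternative. Same-numbered sh-Pfkp and sh-ctrl libraries deviated together from their group means (r 0.138 to 0.378 across genes). Same-numbered pairs with sh-Lin41 did not (-0.26 to 0.0808). Differently numbered sh-Pfkp and sh-ctrl libraries gave r of -0.305 to -0.00136. Differently numbered pairs with sh-Lin41 reached 0.333 (with sh-Pfkp) and 0.252 (with sh-ctrl), so deviations were also shared across numbers. Some genes of the lists, and 1 of the 6 ratios tested, are not reported here.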

Additional observations from a re-analysis of the deposited data

How the results depend on the processing

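The counts of called Polycomb genes ranged from 8 to 10 in sh-Pfkp and from 7 to 8 in sh-Lin41 against control, and from 5 to 6 between the knockdowns. Every direction against control held for Ezh1, Ezh2, Suz12, Jarid2, Mtf2, Rnf2, Kdm2b and Bmi1 under the alternatives run. Limits are 3 libraries per group, 1 hairpin per gene, shared controls, and low counts for Bmi1 and Ring1. The cause of the changes below was not tested. In sh-Pfkp, Cbx7 was called with library totals only (log2 -0.14), FPKM (-0.22 with 1 added, -0.23 with 0.1), the replicate block (-0.0952) or 6 libraries (-0.0905). The block changed no other call of the 10, and over all genes it gave 7435 calls in sh-Pfkp, against 7451 without it. In sh-Lin41, Cbx7 turned to -0.107 and -0.109 in FPKM and ranged from -0.0257 to 0.0526 with a library left out, and Eed ranged from -0.0199 to 0.00558. In FPKM with 1 added, the genes called in sh-Pfkp were 2507 higher and 3802 lower, against 3721 and 3730 on counts. Log2 fold changes in sh-Pfkp shifted by a median of -0.044 over all genes in that setting. With library totals only, which also leave out TMM, the median shift was -0.0479. Library totals only gave 1 canonical PRC1 gene higher and 3 lower in sh-Pfkp. Between the knockdowns, log2 values near 0 changed sign: Bmi1 was 0.00854 with RLE scaling, 0.000307 without the filter, 0.00961 in DESeq2, 0.000275 with the replicate block and 0.00348 with 6 libraries. With library totals only, Ezh1 was -0.0341, Ezh2 -0.0106 and Rnf2 -0.0435. In FPKM with 1 and with 0.1 added, Ezh1 was -0.0321 and -0.0362, Ezh2 -0.034 and -0.0344, and Rnf2 -0.0381 and -0.0387. Leaving out a library gave Bmi1 -0.0347 to 0.0412, Ezh1 -0.0249 to 0.0511 and Rnf2 -0.00947 to 0.0186. The log2 ratio of Ezh2 to Ezh1 turned to -0.0244 in sh-Pfkp and -0.0465 in sh-Lin41 in CPM, and with 1 added to FPKM to -0.019, -0.0167 and, between knockdowns, -0.0023. With 1 added, Rnf2 to Ring1 was 0.0394 in sh-Lin41 and Bmi1 to Pcgf2 was 0.00601 between knockdowns. In CPM, Bmi1 to Pcgf2 was 0.0819 and Jarid2 to Mtf2 -0.0312 between knockdowns. Leaving out a library, Ezh2 to Ezh1 ranged from -0.0466 to 0.0605 in sh-Pfkp, -0.066 to 0.0396 in sh-Lin41 and -0.0495 to 0.0709 between knockdowns. Rnf2 to Ring1 ranged from -0.136 to 0.114 in sh-Lin41. Between knockdowns, Bmi1 to Pcgf2 ranged from -0.0411 to 0.0432, Jarid2 to Mtf2 from -0.0271 to 0.0534 and the Mtf2 share from -0.00235 to 0.00142.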
